A study of Mus musculus with 6 samples.

Results

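The transcripts described here encode 8 enzymes of the tricarboxylic acid (TCA) cycle or its cytosolic counterparts (Cs, Idh1, Idh2, Idh3a, Ogdh, Fh1, Mdh1 and Mdh2) and the enzyme that makes itaconate from a cycle intermediate (Acod1, formerly Irg1). They were chosen by gene name, and all 9 were found once each among the 23398 genes of the table. The cells were bone marrow derived dendritic cells of mice, abbreviated BMDC, grown in DMEM medium with serum and antibiotics and exposed for 12 hours to Ca(OH)2 nanoparticles (3 libraries) or to vehicle (3 libraries). Mouse strain, age, particle dose and growth factor are not given in the sources used here, and nothing says that the libraries of a group came from separate cultures or animals, so p-values measure the spread between these libraries, which may be technical. Both groups carry no other treatment in the labels, and the study asked how the particles change the messenger RNA profile of the cells.

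The TCA cycle in the mitochondrion oxidises acetyl groups. Citrate synthase (Cs) joins them to oxaloacetate, citrate is rearranged by way of cis-aconitate, and isocitrate dehydrogenases (Idh) make 2-oxoglutarate, which the Ogdh complex, succinate enzymes, fumarase (Fh1) and malate dehydrogenase (Mdh2) return to oxaloacetate. In activated myeloid cells Acod1 diverts cis-aconitate to itaconate, a metabolite that inhibits succinate dehydrogenase and has antibacterial and immune regulatory activity. The data below are RNA levels and say nothing of enzyme activity or metabolites.

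Levels are in FPKM, a unit inferred from the values. It divides fragments by gene length and a library scale, so levels can be compared between genes. Here that scale lay within 0.162% of median-of-ratios size factors, which follow the median gene and not total reads. Read totals recovered from the values were 17314165 to 22005692 per library, and the member with the fewest reads in any library, Idh2 in nanoparticle library 1, still had 214. Nanoparticle library 1 stood apart from the other nanoparticle libraries. The chi-square of the recovered reads per degree of freedom was 193 and 257 between it and nanoparticle libraries 2 and 3, against 12.7 between those libraries and 2.92 to 5.69 between vehicle libraries. Results on the members and lists are therefore given with and without it. The deposited scale between libraries places the median gene at a log2 change of 0.00. Scaling by total reads moves that median to -0.28 and scaling each library to an equal sum of FPKM to -0.44, so directions below are relative to the median gene.

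Markers of the labelled cell type and of others were checked first. Itgax, the CD11c integrin of dendritic cells, was at 442 to 456 FPKM in vehicle and 248 to 398 FPKM in nanoparticle libraries, and H2-Ab1, an MHC class II chain, at 982 to 1035 and 494 to 1162 FPKM. Flt3, a receptor of conventional dendritic cells, was at most 0.0793 FPKM. Macrophage markers were expressed as well, all 10 above the filter, with a summed level of 1095 to 1229 FPKM in vehicle and 1445 to 1851 FPKM in nanoparticle libraries (4 higher, 4 lower past the threshold). Dendritic cell markers summed to 1505 to 1551 FPKM in vehicle and 927 to 1708 FPKM in nanoparticle libraries (2 higher and 3 lower of 9 tested). The lower ones were Cd209a (5.17 to 6.21 FPKM in vehicle and at most 0.0763 FPKM with nanoparticles), Clec10a (5.63 to 7.62 and 0.507 to 1.04 FPKM) and Zbtb46 (3.66 to 4.15 and 1.73 to 2.76 FPKM). Ccr7 (1.75 to 2.62 and 105 to 124 FPKM) and Irf8 (8.47 to 8.82 and 18.4 to 24.1 FPKM) were higher. Neutrophil markers summed to 35.1 to 39.8 and 51.0 to 125 FPKM, of which S100a8 made 33.4 to 36.0 and 50.1 to 109 FPKM. In nanoparticle libraries 2 and 3, S100a9 was at 13.2 and 10.2 FPKM, Ngp at 4.30 and 3.23 FPKM and Camp at 1.83 and 1.99 FPKM, against at most 1.65, 0.901 and 0.190 FPKM in vehicle and 0.352, 0.0501 and 0.242 FPKM in nanoparticle library 1. Cxcr2, on the same list, went the other way, at 0.395 to 0.801 FPKM in vehicle and at most 0.139 FPKM with nanoparticles. The neutrophil markers Ly6g, Mpo and Elane were at most 0.192, 0.0537 and 0.307 FPKM in any library, and Ltf and Retnlg at most 0.315 and 0.207 FPKM. Mast cell and basophil markers summed to 1.55 to 2.90 and 8.94 to 25.3 FPKM, a difference carried by Hdc, histidine decarboxylase, at 0.196 to 0.474 FPKM in vehicle and 24.1, 6.69 and 6.76 FPKM in nanoparticle libraries 1 to 3. Kit (1.23 to 1.35 and 0.710 to 1.09 FPKM) and Cpa3 (0.0993 to 1.29 and 0.0807 to 1.47 FPKM) did not pass, and Mcpt8, Ms4a2 and Tpsb2 were at most 0.0605, 0.0178 and 0.140 FPKM. The B, T and NK cell markers summed to at most 0.538 FPKM. Their part in the results was not tested, and in bulk RNA fewer cells of a type and less RNA per cell cannot be told apart.

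Promoters of 8 of the 9 genes are held in the RefSeq table of GRCm38.p6, as windows from 250 bases before the start of transcription to 50 bases from it on, and Idh3a is not among them. Those of Acod1 and Idh1 are printed as the genes with the largest rise and the largest decrease among the members, and that of Mdh2 as the cycle member with the highest level after treatment. Capitals mark a match to 1 of 6 motifs searched on both strands: the interferon-stimulated response element core, the NF-kappaB site, the NRF1 site, the ERR site TCAAGGTCA, the cyclic AMP response element TGACGTCA and the TATA box with the letters TATAAA. The Acod1 window is chr14:103046762-103047061 on the plus strand, that of Idh1 chr1:65186430-65186729 on the minus strand (the upstream of its 2 windows), and that of Mdh2 chr5:135778399-135778698 on the plus strand.
Acod1: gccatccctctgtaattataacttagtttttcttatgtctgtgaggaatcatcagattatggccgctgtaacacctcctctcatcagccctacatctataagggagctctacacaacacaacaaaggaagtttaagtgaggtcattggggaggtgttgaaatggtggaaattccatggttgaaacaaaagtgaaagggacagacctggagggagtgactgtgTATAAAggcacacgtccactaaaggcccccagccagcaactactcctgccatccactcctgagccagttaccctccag
Idh1: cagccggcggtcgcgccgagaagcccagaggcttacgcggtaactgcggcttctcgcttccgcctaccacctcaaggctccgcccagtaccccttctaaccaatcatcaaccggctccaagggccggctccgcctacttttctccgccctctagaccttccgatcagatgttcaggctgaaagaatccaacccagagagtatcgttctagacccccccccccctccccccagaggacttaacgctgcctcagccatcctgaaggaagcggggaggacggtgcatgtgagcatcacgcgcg
Mdh2: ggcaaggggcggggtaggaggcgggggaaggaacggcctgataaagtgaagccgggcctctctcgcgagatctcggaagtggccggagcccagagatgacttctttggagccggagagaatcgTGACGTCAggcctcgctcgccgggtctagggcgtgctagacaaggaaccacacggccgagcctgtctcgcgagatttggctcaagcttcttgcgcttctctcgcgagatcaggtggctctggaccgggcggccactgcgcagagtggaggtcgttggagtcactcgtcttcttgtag
Acod1 was the only one of these 8 genes with TATAAA, from 28 to 23 bases before the start, a motif found in 13.6% of the 32851 windows of this length. The motif TGACGTCA, found in 1.79% of windows, lay from 127 to 120 bases before the start of Mdh2 and in windows of Ogdh. The interferon response, NF-kappaB, NRF1 and ERR letters, found in 3.44%, 5.56%, 4.60% and 0.423% of all windows, matched in none of their windows, and the Idh1 window held no match at all. A match is a description of letters and not a binding site, and the lack of one says only that these letters are not in the window.

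Of the 9 members, 1 rose (Acod1) and 2 fell (Idh1 and Idh3a) at an adjusted p under 0.05, and 6 did not pass. The test was limma's moderated test on log2(FPKM + 1) over 10682 genes, those that reached 1 FPKM in 3 or more libraries, adjusted by Benjamini and Hochberg. All 9 members passed that filter. Over all tested genes 33.2% passed, so the share of members called (33.3%) is that of the background. The groups did not overlap in 7 members (52.1% of all tested genes), with 5 lower and 2 higher after treatment, against 26.2% of all tested genes separated downward and 25.9% upward. Without nanoparticle library 1, 2 members were called higher and 5 lower, 77.8% of the members against 64.8% of all genes.

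**Figure D1:**
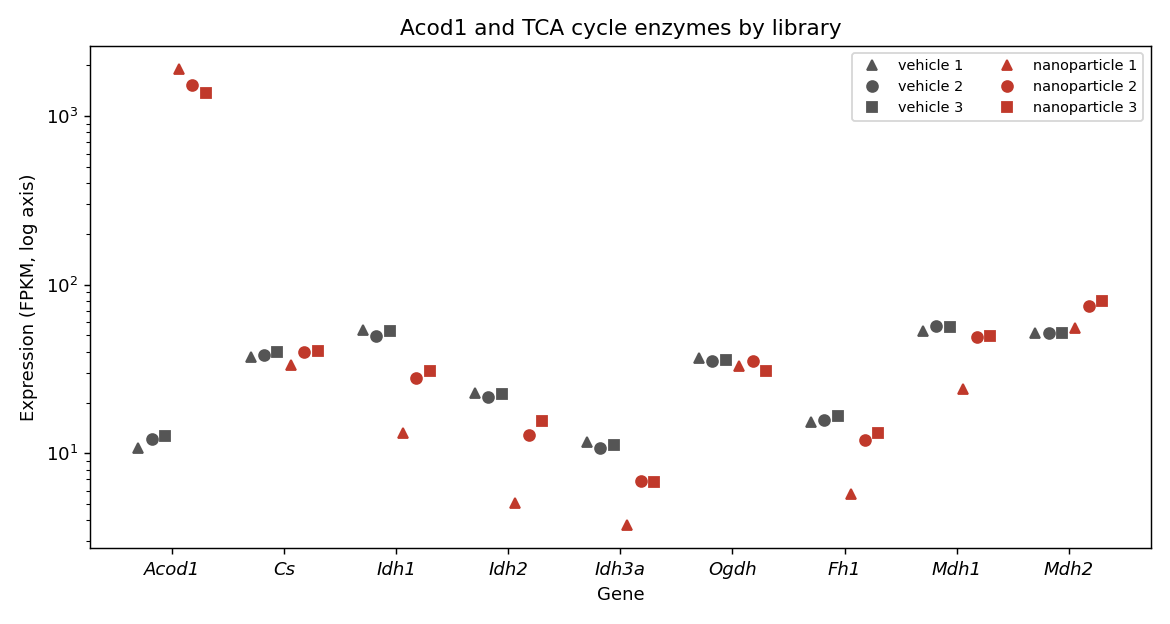
Expression of the 9 members in each library, in FPKM on a log axis, with vehicle libraries in grey and nanoparticle libraries in red and marker shapes for libraries 1, 2 and 3. Acod1 lies between 1379.8 and 1911 FPKM in the nanoparticle libraries and at most at 12.7 FPKM in vehicle, and nanoparticle library 1 (red triangle) is the lowest of the 6 libraries in 6 of the other 8 genes.

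Acod1, aconitate decarboxylase 1 (ENSMUSG00000022126), is annotated by GENCODE M21 at positions 103046977 to 103056573 of chromosome 14 (GRCm38, plus strand). Its level was 10.8, 12.2 and 12.7 FPKM in vehicle libraries 1 to 3 (565, 632 and 693 reads) and 1911, 1530.4 and 1379.8 FPKM in nanoparticle libraries 1 to 3 (81827, 66427 and 69742 reads). Every nanoparticle library was above every vehicle library, and nanoparticle library 1 was the highest of the 6, as in 29.2% of all tested genes. The mean of Acod1 rose 135-fold, from 11.9 ± 0.953 FPKM to 1607 ± 274 FPKM (n = 3 each, ± SD), and on the log2 scale by 6.95 ± 0.158 (SE; limma adjusted p = 7.2e-06). With nanoparticle library 1 left out the rise was 6.82 (limma adjusted p = 8.5e-08), and it stayed past the threshold in each of the 14 alternative settings run. Among the 10682 tested genes its log2 change ranked 10. By level it moved from ranks 3070 to 3486 of the whole table in vehicle to ranks 28 to 43 in nanoparticle libraries.

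In vehicle, Acod1 was near the bottom of the members. Mdh1 (55.3 ± 2.06 FPKM), Idh1 (52.2 ± 2.14) and Mdh2 (51.7 ± 0.310) led, followed by Cs (38.6 ± 1.42), Ogdh (35.8 ± 0.787), Idh2 (22.3 ± 0.761), Fh1 (15.9 ± 0.685), Acod1 and Idh3a (11.2 ± 0.479; SD, n = 3 for each). The libraries of Idh1 overlapped those of Mdh1 and of Mdh2, and those of Acod1 and Idh3a overlapped, while the other neighbours in this order were separate. With nanoparticles the order was Acod1, Mdh2 (70.0 ± 12.8 FPKM), Mdh1 (41.0 ± 14.7), Cs (37.9 ± 3.77), Ogdh (33.0 ± 2.40), Idh1 (23.9 ± 9.38), Idh2 (11.1 ± 5.46), Fh1 (10.3 ± 4.04) and Idh3a (5.78 ± 1.77; SD, n = 3 for each). There every neighbour from Mdh1 down to Idh3a overlapped the next, and only Acod1, Mdh2 and Mdh1 were separate from each other. The lowest Acod1 value with nanoparticles, 1379.8 FPKM, was above the highest value of any cycle member, 79.9 FPKM for Mdh2.

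The entry of the cycle did not pass the test. Cs (chromosome 10, 128337734 to 128362479, plus strand) was at 37.3, 38.2 and 40.1 FPKM in vehicle libraries and 33.6, 39.7 and 40.5 FPKM in nanoparticle libraries 1 to 3. The groups overlapped, with the lowest value in nanoparticle library 1. The change in log2 was -0.03 with a 95% interval from -0.30 to 0.25 (limma adjusted p = 0.88), and 0.06 without nanoparticle library 1, a reversal of a difference near 0. Under scaling by total reads it was -0.36 (limma adjusted p = 0.033), against the median of -0.28 of all genes on that scale.

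The cytosolic aconitase Aco1, which also serves as an iron regulatory protein, fell by 0.49 (SE 0.0988, limma adjusted p = 0.011), from 19.1 ± 0.316 to 13.4 ± 1.08 FPKM (SD, n = 3 each), and by 0.53 with nanoparticle library 1 left out. The call was lost without any vehicle library (limma adjusted p from 0.055 to 0.064).

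The largest decreases among the members were at the isocitrate step. Idh1 (chromosome 1, 65158616 to 65186500, minus strand) encodes the cytosolic and peroxisomal enzyme that yields NADPH. It was at 53.7, 49.7 and 53.1 FPKM in vehicle and at 13.2, 27.8 and 30.7 FPKM in nanoparticle libraries 1 to 3. All nanoparticle libraries were below vehicle, and library 1 was the lowest of them. Idh1 fell by 1.18 on the log2 scale (SE 0.305, limma adjusted p = 0.027). Leaving out nanoparticle library 1 gave -0.82 (limma adjusted p = 9.5e-05). The call ended with no filter on low values (limma adjusted p = 0.063) and when a vehicle library was left out (0.080 to 0.091), though the direction held in each setting.

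Idh3a (chromosome 9, 54586334 to 54604661, plus strand), the catalytic alpha subunit of the NAD-dependent mitochondrial enzyme, was at 11.7, 10.7 and 11.2 FPKM in vehicle and 3.73, 6.86 and 6.74 FPKM with nanoparticles. Groups were separate, with nanoparticle library 1 lowest. Idh3a fell by 0.88 (SE 0.210, limma adjusted p = 0.020), and by 0.64 without nanoparticle library 1 (limma adjusted p = 2.3e-04). Leaving out a vehicle library took the adjusted p to between 0.066 and 0.077. The other subunits of this enzyme are Idh3b and Idh3g. Idh3g fell by 0.47 (SE 0.127, limma adjusted p = 0.032), from 18.5 to 19.2 FPKM in vehicle to 11.2 to 15.1 FPKM, a call lost in 6 of the 14 alternatives. Idh3b overlapped between groups, at 29.5 to 32.2 and 21.6 to 36.0 FPKM, with a log2 change of -0.09 (95% interval -0.56 to 0.38, limma adjusted p = 0.75). Whether the subunits differ from each other was not tested.

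Idh2 (chromosome 7, 80094846 to 80115392, minus strand), the mitochondrial NADP-dependent enzyme, was at 22.8, 21.4 and 22.6 FPKM in vehicle and 5.06, 12.7 and 15.6 FPKM with nanoparticles. The groups did not overlap, and nanoparticle library 1 was again the lowest. The difference did not pass (log2 change -1.06, SE 0.365, 95% interval -1.94 to -0.18, limma adjusted p = 0.068). Leaving out nanoparticle library 1 made it smaller, -0.62, and past the threshold (limma adjusted p = 0.0012).

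The 2-oxoglutarate dehydrogenase complex, which makes succinyl-CoA, showed no change in its first 2 components that passed the test. Ogdh (chromosome 11, 6291633 to 6356642, plus strand) was at 36.7, 35.1 and 35.6 FPKM in vehicle and 32.9, 35.4 and 30.6 FPKM with nanoparticles. Its groups overlapped, and nanoparticle library 1 was within the range of the others of its group (log2 change -0.12, 95% interval -0.36 to 0.12, limma adjusted p = 0.42; also -0.12 without that library). Dlst, the second component, had a log2 change of 0.08 (95% interval -0.13 to 0.28, limma adjusted p = 0.54), and of -0.25 by total reads. Dld, the third component, which is shared with the pyruvate dehydrogenase complex, rose from a mean of 21.5 ± 0.727 to one of 31.2 ± 1.63 FPKM (± SD, n = 3 each; change in log2 0.52 with SE 0.0950; adjusted p = 0.0076 by limma). On the scale of total reads the log2 change of Dld was 0.19 (limma adjusted p = 0.14) and on that of equal sums 0.07 (0.58).

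At the succinate steps the genes behaved unequally. Suclg2, the GTP-linked succinyl-CoA synthetase subunit, was at 1.32, 1.33 and 1.12 FPKM in vehicle and 0.119, 0.601 and 0.449 FPKM with nanoparticles. It fell by 0.71 (SE 0.155, limma adjusted p = 0.014), a call lost when vehicle library 1 or 2 was left out. Its partner Suclg1 (log2 change -0.29, limma adjusted p = 0.41) and the ATP-linked subunit Sucla2 (0.26, 0.32) did not pass. Without nanoparticle library 1, Sucla2 passed at 0.47 (limma adjusted p = 8.5e-04) and Suclg1 did not (-0.01, 0.94). None of the 4 subunit genes of succinate dehydrogenase, the enzyme that itaconate inhibits, passed over the 6 libraries. Sdhb, its iron-sulfur subunit, was at 38.5, 39.4 and 36.8 FPKM in vehicle and at 26.9, 57.8 and 64.6 FPKM with nanoparticles, so that library 1 lay below and libraries 2 and 3 above vehicle. The log2 change of Sdhb was 0.28 (95% interval -0.50 to 1.05, limma adjusted p = 0.55), and 0.66 without nanoparticle library 1 (limma adjusted p = 2.3e-04). Sdha, Sdhc and Sdhd had log2 changes of -0.14, -0.03 and 0.05. Of these, Sdhc and Sdhd also passed without nanoparticle library 1, at 0.24 and 0.29 (limma adjusted p = 0.044 and 0.017).

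Fh1 (chromosome 1, 175600374 to 175625635, minus strand), which hydrates fumarate to malate, was at 15.4, 15.7 and 16.7 FPKM in vehicle and 5.71, 12.0 and 13.2 FPKM with nanoparticles. Groups were separate, with nanoparticle library 1 well below the rest, and the difference did not pass (log2 change -0.65, 95% interval -1.34 to 0.04, limma adjusted p = 0.13). Without that library it was -0.31 (limma adjusted p = 0.0077). Fh1 overlaps the start of Kmo on the other strand, a gene at no more than 6.45 FPKM, and reads of the shared stretch cannot be told apart because the strand of the counting is not stated.

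The malate dehydrogenases had log2 changes of opposite sign. Mdh1 (chromosome 11, 21556787 to 21572367, minus strand), the cytosolic enzyme of the malate-aspartate shuttle, was at 52.9, 56.8 and 56.1 FPKM in vehicle and 24.0, 49.1 and 49.8 FPKM with nanoparticles. Mdh2 (chromosome 5, 135778480 to 135790398, plus strand), the mitochondrial cycle enzyme, was at 51.4, 51.7 and 52.0 FPKM in vehicle and 55.5, 74.7 and 79.9 FPKM with nanoparticles. Nanoparticle libraries were all below vehicle for Mdh1 and all above for Mdh2, and library 1 was the lowest of its group in both. Neither passed over the 6 libraries (Mdh1 log2 change -0.49, SE 0.284, limma adjusted p = 0.23; Mdh2 0.41, SE 0.156, 0.089). Without nanoparticle library 1 both did, at -0.16 (limma adjusted p = 0.041) and 0.57 (1.6e-04). The sign for Mdh2 flipped to -0.05 when libraries were scaled to equal sums and was 0.07 on the scale of total reads.

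**Figure D2:**
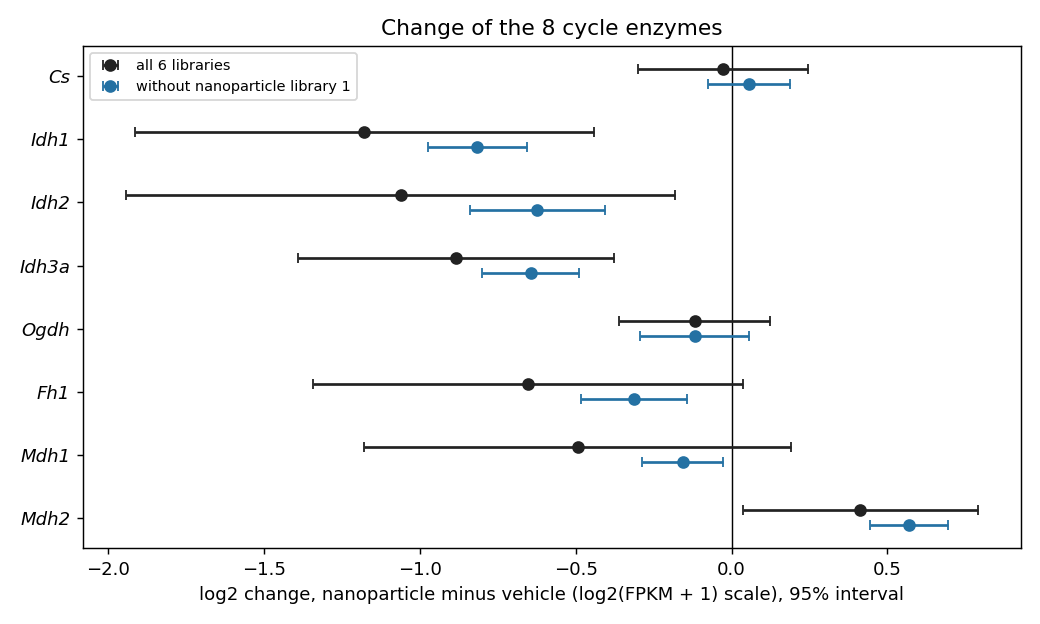
Log2 change of the 8 cycle enzymes, nanoparticle minus vehicle on the log2(FPKM + 1) scale, with 95% intervals from limma, for all 6 libraries (black) and without nanoparticle library 1 (blue). Intervals are narrower without that library, and for Idh1, Idh2, Idh3a, Fh1 and Mdh1 the estimate moves toward 0, for Idh1 from -1.18 to -0.82.

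Ratios within a library do not depend on the scale between libraries. Mdh1 to Mdh2 was 1.03, 1.10 and 1.08 in vehicle and 0.433, 0.658 and 0.624 in nanoparticle libraries, with no overlap (log2 difference -0.93). Acod1 to Cs went from 0.290, 0.318 and 0.315 to 56.9, 38.5 and 34.1, a log2 difference of 7.10. Both gave an exact two-sided permutation p = 0.1, the smallest that 3 libraries against 3 allow (Benjamini-Hochberg adjusted p = 0.167 over 5 measures). Idh1 to Idh2 was 2.32 to 2.35 in vehicle and 1.97 to 2.61 with nanoparticles, and Idh2 to Idh3a 1.95 to 2.03 and 1.36 to 2.32. These overlapped between groups (exact permutation p = 0.7 and adjusted p = 0.7 for each). The summed level of the 8 cycle members was 282, 279.5 and 287 FPKM in vehicle and 174, 258 and 267 FPKM with nanoparticles (log2 difference -0.31, exact permutation p = 0.1, adjusted p = 0.167). On equal library sums that difference was -0.78.

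**Figure D3:**
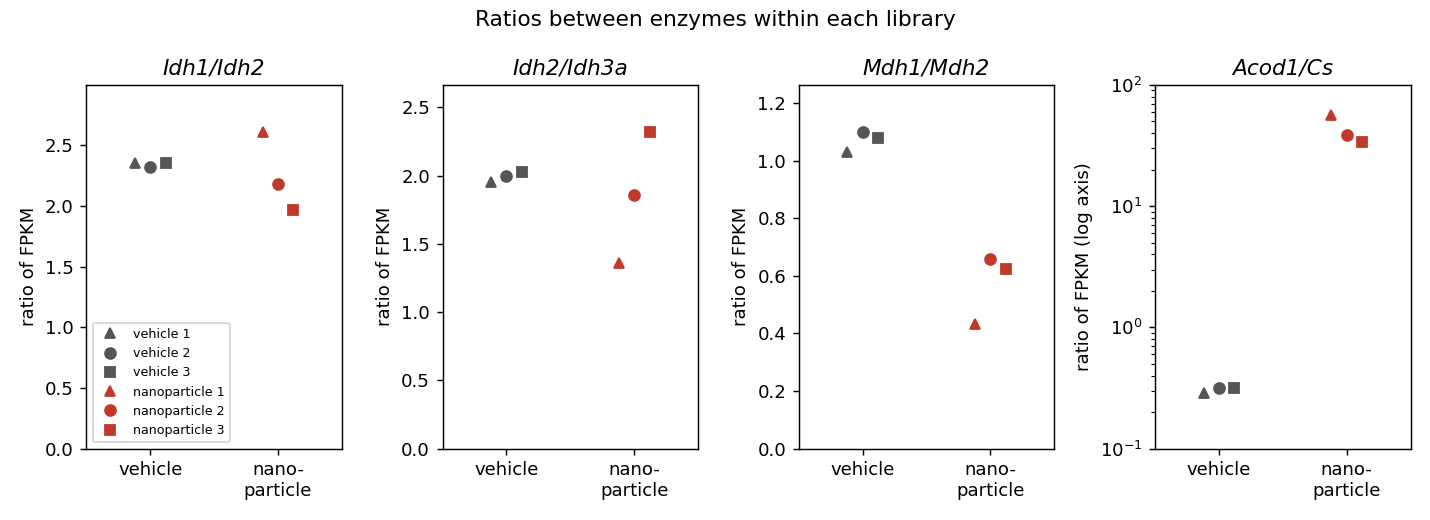
Ratio of FPKM between pairs of enzymes in each library, on axes from 0 for Idh1/Idh2, Idh2/Idh3a and Mdh1/Mdh2 and on a log axis for Acod1/Cs, with the same markers for libraries 1, 2 and 3. Mdh1/Mdh2 is above 1 in every vehicle library and at most 0.658 in nanoparticle libraries, while the isocitrate dehydrogenase ratios overlap.

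Over the list of 21 TCA cycle enzymes, which holds the 8 members, 20 genes passed the filter and Ogdhl did not. Of these, 1 rose (Dld) and 5 fell, Idh1, Idh3a, Idh3g and Suclg2 among them, a count to be read against 17.0% of all tested genes called higher and 16.2% called lower. The median log2 change was -0.13, beside 0.00 for all tested genes. In 15 of the 20 genes nanoparticle library 1 had the lowest value of all 6, against 32.6% of all tested genes. Without it the list had 6 genes higher and 8 lower and a median of -0.01, beside 34.3% and 30.5% of all genes called in each direction. When vehicle library 1, 2 or 3 was left out, 1, 0 and 1 genes of the list passed. Over all tested genes the count fell as well, from 3550 to 2226, 2188 and 2141. The log2 change of Idh1 was then -1.16, -1.21 and -1.17, beside -1.18 with all libraries. That of Idh3a was -0.85, -0.91 and -0.89, beside -0.88. With libraries scaled by total reads, 0 genes of the list were higher and 11 lower, beside 1109 and 3610 of the 10682 tested genes.

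**Figure D4:**
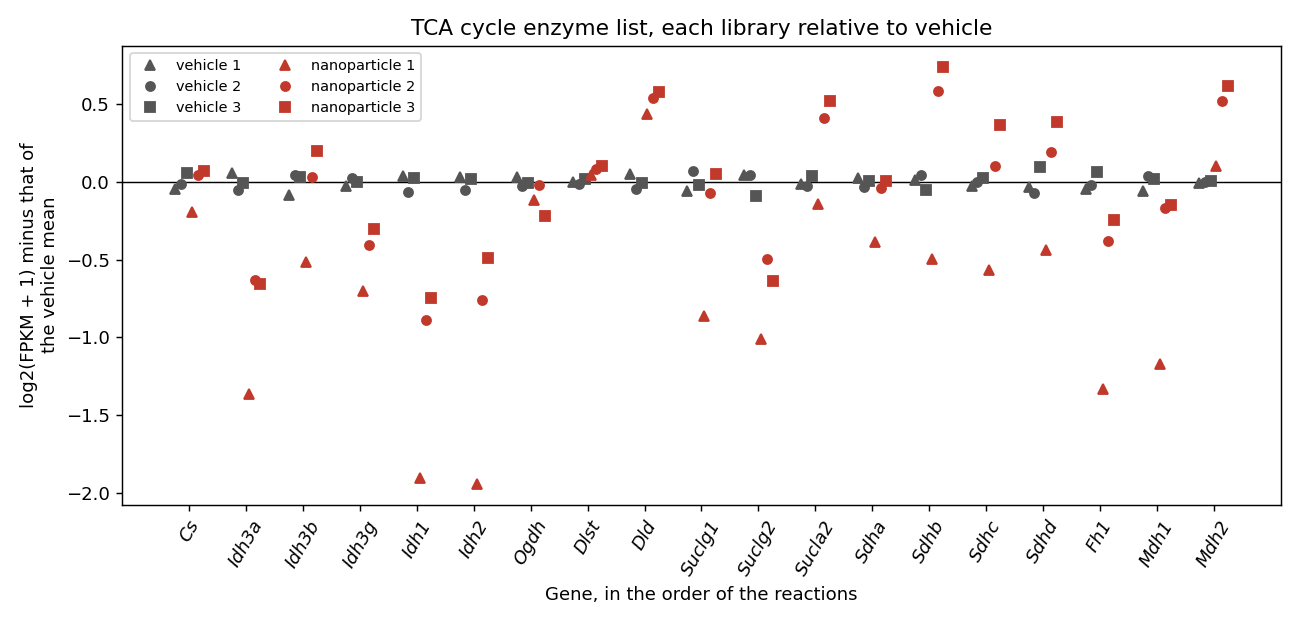
Each library of 19 TCA cycle genes relative to the vehicle mean, as a difference of log2(FPKM + 1), with genes in the order of the reactions and vehicle in grey and nanoparticle in red. Nanoparticle library 1 (red triangle) lies lowest in 15 genes, and Idh1, Idh2 and Idh3a lie below vehicle in all nanoparticle libraries.

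Pyruvate reaches the cycle through the mitochondrial carrier and the pyruvate dehydrogenase complex, which kinases switch off and phosphatases switch on. Of 13 tested genes of this list 1 rose and 3 fell, with a median log2 change of -0.23, and 5 were higher and 5 lower without nanoparticle library 1. These counts are near the shares of all tested genes, 17.0% higher and 16.2% lower, and 34.3% and 30.5% without that library. Pdha1, the catalytic subunit, fell from a mean of 20.4 ± 0.265 to one of 13.0 ± 1.94 FPKM (± SD, n = 3 each; change in log2 -0.61; adjusted p = 0.012 by limma). The kinase Pdk2 (-0.57, limma adjusted p = 0.011) and the phosphatase Pdp1 (-0.33, 0.034) fell as well. Each of these calls was lost in some alternatives, Pdha1 without any vehicle library (limma adjusted p from 0.056 to 0.060), Pdk2 without vehicle library 1 (0.051), and Pdp1 in 5, among them the replicate block (0.12) and each vehicle library left out (0.095 to 0.15). Pcx, pyruvate carboxylase, which makes oxaloacetate from pyruvate, rose from a mean of 2.02 ± 0.435 to one of 5.02 ± 2.08 FPKM (± SD, n = 3 each; change in log2 0.94; adjusted p = 0.044 by limma). Nanoparticle library 1, at 2.80 FPKM, was nearest to vehicle for Pcx, and the call was lost in 8 of the 12 alternatives that gave a value, both other scales included. On the scale of total reads 8 genes of the list were lower and 0 higher, beside 3610 and 1109 of the 10682 tested genes.

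Among 14 genes of citrate and dicarboxylate transport and use, 2 rose and 7 fell, with a median log2 change of -0.32 (4 higher and 8 lower without nanoparticle library 1). Of all tested genes 17.0% rose and 16.2% fell (34.3% and 30.5% without that library). Me1, the cytosolic malic enzyme that yields NADPH, rose from a mean of 1.85 ± 0.216 to one of 4.64 ± 0.461 FPKM (± SD, n = 3 each; change in log2 0.98 with SE 0.110; adjusted p = 0.0012 by limma). Slc25a1, the mitochondrial citrate carrier, was the other gene that rose (log2 change 0.51, limma adjusted p = 0.030). That call was lost in 8 of the 14 alternatives, with a log2 change of 0.17 by total reads and 0.05 on equal sums (limma adjusted p = 0.29 and 0.67). Acaca, acetyl-CoA carboxylase of fatty acid synthesis, fell from a mean of 2.63 ± 0.126 to one of 1.28 ± 0.240 FPKM (± SD, n = 3 each; change in log2 -0.68; adjusted p = 0.0050 by limma). Pck2, mitochondrial phosphoenolpyruvate carboxykinase, fell by 0.59 (limma adjusted p = 0.0059). Leaving out a vehicle library left 3 genes of this list past the threshold, and leaving out nanoparticle library 2 left 5.

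All 7 genes of glutamine entry had lower means with nanoparticles, 4 of them past the test. Their median log2 change was -0.40, beside 0.00 for all tested genes. Among the 7, Gpt2 and Glul had log2 changes of -0.02 and -0.05, which turned to 0.09 and 0.03 without nanoparticle library 1. Aldh18a1, which makes proline precursors from glutamate, had the smallest adjusted p (log2 change -0.84, SE 0.151, limma adjusted p = 0.0070), with 6.29 ± 0.679 FPKM in vehicle and 3.09 ± 0.708 FPKM after treatment (± SD, n = 3 each). Oat, ornithine aminotransferase, fell by 0.57 (limma adjusted p = 0.027) and the glutamine carrier Slc1a5 by 0.86 (0.043). Nanoparticle library 1 was the lowest library in all 7 genes, 5 were lower past the threshold without it, and 1 was when a vehicle library was left out. Of all tested genes 16.2% fell, 32.6% had that library lowest and 30.5% were lower without it. Oat and Slc1a5 lost their calls without any vehicle library (limma adjusted p from 0.093 to 0.13) and with a replicate block (0.059 and 0.055).

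Genes that remove or carry itaconate were low or did not pass over the 6 libraries. Of the 10 genes of the itaconate list 6 were tested, and besides Acod1 and Suclg2 none was called. Over all tested genes 17.0% were called higher and 16.2% lower. Without nanoparticle library 1, 2 of the 6 were higher and 3 lower, beside 34.3% and 30.5% of all tested genes. Clybl, the mitochondrial enzyme that breaks down citramalyl-CoA from itaconate, was at 3.58 to 4.72 FPKM in vehicle and 2.66 to 3.14 FPKM with nanoparticles (log2 change -0.35, limma adjusted p = 0.067). Abcg2, an exporter, was at -0.50 on the log2 scale (limma adjusted p = 0.057). Without nanoparticle library 1, Clybl and Abcg2 passed as lower, at -0.38 and -0.33 (limma adjusted p = 0.025 and 0.01). The carrier Slc13a3, Sugct and the succinate receptor Sucnr1 stayed at or below 0.417, 0.393 and 0.0584 FPKM.

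Among assembly and lipoylation factors, 9 were tested, 1 rose and 2 fell, with a median log2 change of 0.05 (3 higher and 2 lower without nanoparticle library 1). Of all tested genes 17.0% rose and 16.2% fell (34.3% and 30.5% without it). Sdhaf2, which adds the flavin to succinate dehydrogenase, rose from a mean of 16.2 ± 0.292 to one of 22.3 ± 0.197 FPKM (± SD, n = 3 each; change in log2 0.44; adjusted p = 0.0094 by limma), but its log2 change was 0.11 on the scale of total reads and -0.01 on equal sums. Lipt2, a lipoyl transferase, fell by 0.77 (limma adjusted p = 0.037) and D2hgdh, which oxidises D-2-hydroxyglutarate, by 0.33 (0.039). None of these calls held when a vehicle library was left out.

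Genes of mitochondrial content and biogenesis were listed beside the cycle. Of 14 tested, with a median log2 change of 0.06, 1 passed the test, beside 33.2% of all tested genes. It was Ppargc1b, a coactivator of mitochondrial biogenesis, which fell from a mean of 2.56 ± 0.121 to one of 1.34 ± 0.136 FPKM (± SD, n = 3 each; change in log2 -0.60; adjusted p = 0.0043 by limma). Summed levels were 386 to 394 FPKM in vehicle, 321 FPKM in nanoparticle library 1 and up to 517 FPKM in the other nanoparticle libraries. Without nanoparticle library 1, 5 of the 14 were higher and 1 lower, beside 34.3% and 30.5% of all tested genes.

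Genes of a list of inducers of Acod1 mostly rose, and a link to the rise of Acod1 was not tested. The list holds interferon and Toll-like receptor signalling components among others. Of 15 tested, 12 rose and 3 did not pass, with a median log2 change of 1.30, and 13 were higher without nanoparticle library 1. Of all tested genes 17.0% rose, and 34.3% were higher without that library. Tnf, a cytokine of the NF-kappaB response, rose from a mean of 47.6 ± 1.04 to one of 1100.5 ± 151 FPKM (± SD, n = 3 each; change in log2 4.49; adjusted p = 2.4e-05 by limma). Irf1, an interferon regulatory factor, rose by 2.46 (limma adjusted p = 3.9e-05) and Irf9 by 1.55 (1.8e-04). The genes that did not pass were Irf3, Tlr4 and Myd88, with log2 changes of 0.10, 0.04 and 0.01, all below 0 on both other scales.

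The 5 tested genes with the profile most like that of Acod1 were found by the root mean square difference of log2(FPKM + 1) over the 6 libraries, after subtracting each gene's vehicle mean. They were Isg15 (difference 0.224), a ubiquitin-like interferon-induced protein, Ifit3 (0.226), an interferon-induced antiviral protein, Il12b (0.277), a chain of interleukin-12, Oasl1 (0.309), an interferon-induced protein of the oligoadenylate synthetase family, and Clec4e (0.322), the lectin receptor Mincle. Nanoparticle library 1 was the highest library for each of them, as it was for Acod1, a likeness that the choice by profile favours.

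**Figure D5:**
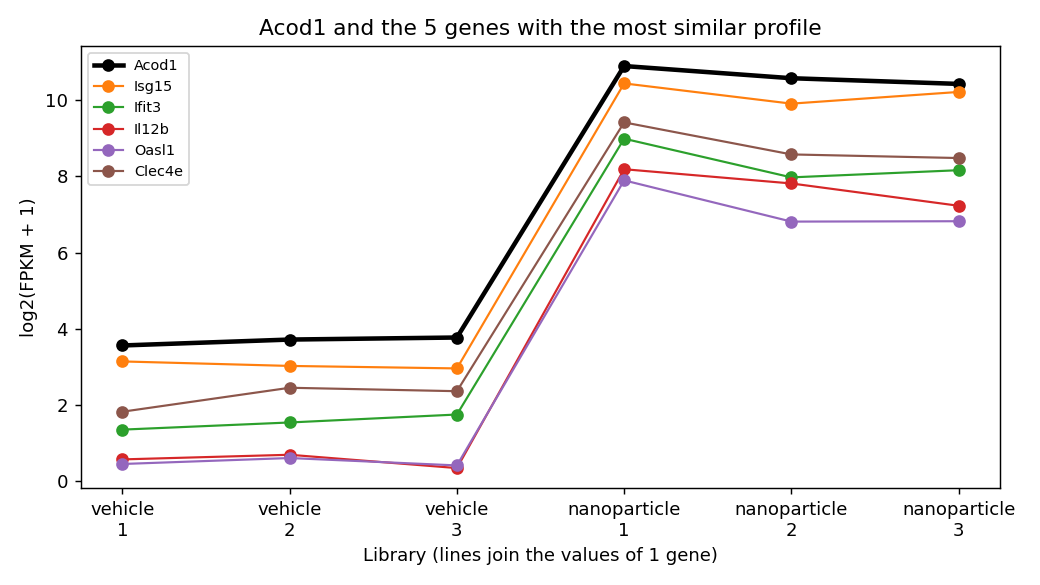
log2(FPKM + 1) of Acod1 (black) and of the 5 genes with the most similar profile in each of the 6 libraries. The log2 changes of Isg15, Ifit3, Il12b, Oasl1 and Clec4e are 7.15, 6.83, 7.21, 6.69 and 6.62 from the vehicle to the nanoparticle libraries, and nanoparticle library 1 is the highest for every gene drawn. The genes were chosen by likeness to Acod1 over these same libraries, which favours both features.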

How the data were processed

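RNA of 6 libraries was measured by sequencing, from 1 µg of total RNA with NEBNext Ultra II library preparation, per the labels' protocols. The submitters' processing notes name CASAVA, STAR 2.5, HTSeq, edgeR 3.16.5, DESeq2 2 and the builds hg19 and mm10, and the role of each, the gene annotation and the strand setting are not given in the sources used here. The deposited values fit FPKM, a unit inferred from the values. With gene lengths of GENCODE M21 (23388 identifiers matched, 10 did not), 95.8% to 96.1% of values above 0 per library were whole reads within 0.01. A shorter length was then found for 232 of 242 searched genes, used for the recovered reads and not for that share. Library scales implied by the FPKM values the authors deposited lay within 0.162% of median-of-ratios size factors. Recovered reads carry no molecular identifiers, so their totals describe counting error only. The 2 deposited tables hold identical values, and 1 was used.

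The 10682 genes that reached 1 FPKM in 3 or more libraries were tested on log2(FPKM + 1) with limma 3.58.1 in R 4.3.3 (trended empirical Bayes, Benjamini-Hochberg adjustment, threshold 0.05), where folds of low genes are understated. Ratios were compared by exact two-sided permutation tests. No pair of libraries agreed within sampling noise. Named genes were the 9 members, up to 4 further genes per list with the smallest adjusted p among those past the threshold and with separate groups, any gene needed to account for a count of 5 or fewer, the 5 genes most like Acod1 and its neighbours. Other genes named, among them uncalled subunits and marker genes, were chosen after their values were seen. Some genes that the rule names are not reported here. Members and lists were chosen with earlier results of these data known. Alternatives were another pseudocount (0.1), no filter or one of 5 FPKM, other library scales, no trend, a replicate block, leaving out each library and limma-voom on recovered reads. Scripts were tested on simulated data and used Python 3.11.15, numpy 2.4.6, pandas 2.3.3, scipy 1.17.1 and matplotlib 3.10.9.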

Additional observations from a re-analysis of the deposited data

How the results depend on the processing

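Over all tested genes 3550 passed (1817 higher, 1733 lower), 5125 with libraries scaled to equal sums (884 and 4241) and 4719 with scaling by total reads (1109 and 3610), and 2141 to 6923 when 1 library was left out. The lowest counts, 2226, 2188 and 2141, came without vehicle library 1, 2 and 3, and the highest without nanoparticle library 1. limma-voom on recovered reads, chosen after seeing the data, gave 3479.

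On equal sums the lists of TCA enzymes, pyruvate entry, glutamine entry, itaconate and mitochondrial content had 14, 8, 7, 5 and 5 genes past the threshold, and by total reads TCA, pyruvate, itaconate and mitochondrial genes 11, 8, 4 and 3. A filter of 5 FPKM left 2 pyruvate, 1 itaconate, 1 assembly and 0 mitochondrial genes, and no filter left 2 glutamine genes. Leaving out 1 library gave 0 to 14 TCA, 0 to 10 pyruvate, 3 to 12 citrate, 1 to 5 glutamine, 1 to 5 itaconate, 0 to 5 assembly, 1 to 6 mitochondrial and 11 to 13 inducer genes.

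On equal sums and by total reads the log2 changes past the threshold included Cs (-0.49 and -0.36), Idh2 (-1.58 and -1.38), Ogdh (-0.59 and -0.45), Fh1 (-1.15 and -0.97) and Mdh1 (-0.97 and -0.83). Mdh2 reversed to -0.051 and Sdhaf2 to -0.0076 on equal sums, and the summed cycle members moved to -0.78. Idh1 without a filter, at -1.18, did not pass. With 1 library left out the log2 change was 6.82 to 7.06 for Acod1, -0.074 to 0.056 for Cs (0.00 without vehicle library 3), -1.39 to -0.82 for Idh1, -1.35 to -0.62 for Idh2, -1.01 to -0.64 for Idh3a, -0.17 to -0.07 for Ogdh, -0.86 to -0.31 for Fh1, -0.67 to -0.16 for Mdh1 and 0.31 to 0.57 for Mdh2. For ratios it was -0.18 to 0.026 (Idh1/Idh2), -0.33 to 0.059 (Idh2/Idh3a), -1.04 to -0.74 (Mdh1/Mdh2), 6.88 to 7.25 (Acod1/Cs) and -0.42 to -0.11 (cycle sum). The cause was not tested.

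Further named genes that did not pass changed sign. On equal sums and by total reads the log2 changes were -0.38 and -0.25 for Dlst, -0.18 and -0.055 for Sucla2, -0.19 and -0.060 for Sdhb, -0.42 and -0.30 for Sdhd, -0.35 and -0.21 for Irf3, -0.41 and -0.28 for Tlr4 and -0.46 and -0.32 for Myd88. With 1 library left out they ran from -0.24 to 0.12 for Idh3b, -0.23 to 0.24 for Sdhc, -0.12 to 0.29 for Sdhd, -0.18 to 0.19 for Tlr4, -0.18 to 0.28 for Myd88, -0.47 to 0.15 for H2-Ab1 and -0.014 to 0.65 for Cpa3.

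Libraries share replicate numbers, but same-numbered deviations correlated at 0.065, 0.113 and -0.058 for numbers 1 to 3, so the numbers were not taken as pairs. With the replicate block 2785 genes passed (1451 higher, 1334 lower), with 5 citrate, 1 glutamine and 0 assembly genes. Acod1, Idh1 and Idh3a stayed past the threshold under the block (limma adjusted p = 4.9e-04, 0.036 and 0.037).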

Other observations

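Kctd12, the protein-coding gene 64339 bases before Acod1 on chromosome 14 and on the minus strand, did not pass the test. It was at 34.3, 31.7 and 32.3 FPKM in vehicle and 30.1, 20.8 and 25.2 FPKM with nanoparticles (log2 change -0.37, limma adjusted p = 0.10).

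Of the enzymes that consume 2-oxoglutarate, 6 genes of collagen modification were picked by gene description after values had been seen, and 3 were tested. Other enzymes of that kind are not shown, and 17.0% of all tested genes rose. P4ha1, a prolyl hydroxylase subunit, was at 77.2, 48.4 and 50.3 FPKM in nanoparticle libraries 1 to 3 and at 27.0 ± 1.02 FPKM in vehicle (± SD, n = 3). It rose by 1.06 on the log2 scale (SE 0.193, adjusted p = 0.0074 by limma). Plod3, a lysyl hydroxylase, rose by a log2 change of 0.56 (limma adjusted p = 0.025), a call lost in 8 of the 14 alternatives, and Plod1 had one of -0.36 (limma adjusted p = 0.069). P4ha2, not tested, was at 0.107 to 0.225 FPKM in vehicle and 3.37, 0.271 and 0.316 FPKM with nanoparticles, high in nanoparticle library 1 alone. Plod2 and P4ha3, also not tested, were at most 0.432 and 0.0480 FPKM in any library.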
